A study of Homo sapiens with 31 samples.

Results

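Oncofetal genes are active in the embryo, fall silent in most adult tissues and return in many tumors. The 10 genes followed here were LIN28A, LIN28B, IGF2BP1, IGF2BP2, IGF2BP3, HMGA1, HMGA2, IGF2, IGF1R and DLK1. All are called oncofetal here for short, although not each of them, such as the receptor IGF1R, meets that definition. They were taken as a list of names, chosen with earlier results of these data known. All 10 were among the 19221 genes used from the deposited table. mRNA was sequenced in 31 libraries of cell lines that the study used as models of ovarian cancer. The study acknowledges controversy over these models, including the origin of C13*. C13*, a cisplatin-resistant line, carried a lentiviral control shRNA (shCON, n = 7) or a lentiviral shRNA against CEBPB, the gene of the transcription factor C/EBPβ (shCEBPB, n = 8). A2780 was sequenced as the parent line (n = 8) and as an olaparib-resistant strain (A2780 OlaR, n = 8). That strain had been raised from the parent line under increasing doses of olaparib, a PARP inhibitor. All values are FPKM, that is, fragments on a gene per unit of its length and of library size. The study counts its libraries as biological replicates without saying whether each came from its own culture, so p-values measure the spread between these libraries only.

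LIN28A and LIN28B are RNA-binding proteins that seize the precursors of let-7 microRNAs and block their maturation. Mature let-7 in turn represses mRNAs that carry its seed match, among them those of LIN28B, HMGA2 and the IGF2BP genes, and let-7 rises as tissues mature. IGF2BP proteins bind mRNAs, many of them marked with N6-methyladenosine, and stabilize them, whereas HMGA proteins bend AT-rich DNA with their AT hooks. IGF2 is a fetal growth factor that signals through the receptor IGF1R, and DLK1 is an imprinted non-canonical Notch ligand of fetal tissues and progenitors.

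The groups were checked against their labels before any gene was compared. Over 12967 genes that reached 1 FPKM in 7 or more libraries, the mean profile of A2780 OlaR correlated with that of its parent A2780 at r = 0.709, and 4517 genes (34.8%) differed at least 2-fold on the log2(FPKM + 1) scale. The same profile correlated with that of C13* shCON at r = 0.993, and 69 genes (0.532%) differed that much. C13* shCON and C13* shCEBPB correlated at r = 0.791, with 3585 genes (27.6%) at least 2-fold apart. The libraries labelled A2780 OlaR and C13* shCON therefore lay close together, while the libraries labelled A2780 and C13* shCEBPB each stood apart. The library codes in the labels begin with C for A2780 OlaR, CS for C13* shCON, O for A2780 and R for C13* shCEBPB. Whether any group label is wrong was not tested, and the labelled treatments cannot be told apart from these differences between whole profiles, which affect every result that follows. One shCON library (replicate 1) gives A2780 as its cell line in one field and C13* in its title. It stayed with shCON, and without it the 6 genes called in shCEBPB against shCON were still called. The contrasts of shCON with the A2780 groups were not rerun without it.

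Markers of cell type differed as widely. The 6 ovarian and Mullerian markers PAX8, WT1, MUC16, MSLN, FOLR1 and EMX2 summed to 996–1102 FPKM in shCEBPB, 35.7–41.9 in shCON, 27.1–38.6 in A2780 OlaR and 14.9–18.6 in A2780. They did not move together: mean FOLR1 was at 887 FPKM in shCEBPB and 1.20 in shCON, and MSLN at 154 and 30.7, whereas PAX8 was at 0.536 in shCEBPB and 6.10 in shCON. The 6 squamous markers KRT5, KRT6A, KRT14, TP63, SFN and DSG3 summed to 2542–3089 FPKM in shCON and 2570.4–3370 in A2780 OlaR. In shCEBPB they summed to 85.2–172, nearly all of it SFN, and in A2780 to 0.416–1.87. TP63 was at 53.1 FPKM in shCON and 0.0791 in shCEBPB. The 6 epithelial markers EPCAM, CDH1, KRT7, KRT8, KRT18 and KRT19 had a median sum of 2461 FPKM in shCON, 2905 in A2780 OlaR, 2045 in shCEBPB and 88.8 in A2780. Their makeup differed, since KRT19 was at 1470.2 FPKM in shCON and 0.0306 in shCEBPB, CDH1 at 82.9 and 0.655, and KRT7 at 8.02 and 583. The 6 mesenchymal markers VIM, CDH2, FN1, ZEB1, ZEB2 and TWIST1 summed to 897–942 FPKM in A2780, 353–381 in shCEBPB, 39.6–44.4 in shCON and 31.1–34.1 in A2780 OlaR. The immune marker PTPRC had a mean of 85.9 FPKM in A2780 and was at or near 0 in the other groups, and CD3E was at 0 in every library. The 3 endothelial markers summed to at most 2.39 FPKM and the 6 pluripotent and germ cell markers to at most 2.99 FPKM in any library. The part of these marker differences in the values of the oncofetal genes was not tested.

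CEBPB, the targeted gene, ranged from 75.2 to 101 FPKM in shCON (median 85.4) and from 30.2 to 58.7 in shCEBPB (median 49.5). The groups did not overlap, and CEBPB was lower in shCEBPB by the limma test (log2 fold change -0.87, standard error 0.11, adjusted p = 1.42e-06). It ranged from 85.6 to 111 FPKM in A2780 and from 97.1 to 127 in A2780 OlaR, which overlapped (log2 fold change 0.16, adjusted p = 0.0202). In the fit of all 4 groups that difference did not pass the threshold (adjusted p = 0.103). CEBPB in A2780 OlaR exceeded that in shCON in the same fit (log2 difference 0.38, adjusted p = 0.00204), although their libraries overlapped.

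The let-7 family is shown first because its seed links most of the genes that follow. The mature sequences are those of RefSeq (GRCh38.p14), 5′ to 3′, with the seed (bases 2 to 8) in capitals. All 9 members found share that seed. let-7 itself was not measured in these mRNA libraries.
let-7a-5p: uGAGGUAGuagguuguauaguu
let-7b-5p: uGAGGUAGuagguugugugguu
let-7c-5p: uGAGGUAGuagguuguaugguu
let-7d-5p: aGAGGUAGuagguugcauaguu
let-7e-5p: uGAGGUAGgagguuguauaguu
let-7f-5p: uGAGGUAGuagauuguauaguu
let-7g-5p: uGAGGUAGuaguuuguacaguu
let-7i-5p: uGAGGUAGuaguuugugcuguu
miR-98-5p: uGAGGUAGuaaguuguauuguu

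The 3′ UTRs of 19061 protein-coding genes (1 MANE Select transcript each, GENCODE 44) were searched on the transcript strand for the 8-base match CTACCTCA and the 7-base match CTACCTC, which lies inside it. Of these UTRs, 3.74% held the 8-base match and 9.70% held the 7-base match, alone or within the longer one. Among the oncofetal genes, 7 of 10 held the 8-base match, and HMGA1 held 1 copy of the 7-base match only. IGF2 and DLK1 held neither. The UTRs of these genes are long, so each was set beside UTRs of 75% to 125% of its length. Each such set includes the gene's own UTR, and the shares count UTRs with at least as many copies. IGF2BP1 held 3 copies of the 8-base match in a UTR of 6701 bases, and 0.421% of 950 UTRs of like length held as many. LIN28B held 2 copies in 4549 bases, as did 0.424% of 1889 UTRs. HMGA2 held 4 copies of the 7-base match in 2999 bases, 1 of them within the 8-base match, and 0.0726% of 2755 UTRs held as many. On the 8-base match alone HMGA2 held 1 copy, and 5.84% of those UTRs held at least 1. LIN28B and IGF2BP1 also held 4 copies each of the 7-base match, as did 0.159% and 0.421% of UTRs of like length. LIN28A, IGF2BP2, IGF2BP3 and IGF1R held 1 copy of the 8-base match each, and 4.60% to 12.4% of UTRs of like length held at least as many. A match in letters is a description and not a site shown to be used. The 8-base matches are printed with their flanks in hg38, on the strand of the gene, with the match in capitals, since they mark which of these mRNAs carry the seed complement.
LIN28A, chr1:26427352-26427374, plus strand: agcctattgaaCTACCTCAtttt
LIN28B, chr6:105078816-105078838, plus strand: ggttgcaaagtCTACCTCAtgca
LIN28B, chr6:105081425-105081447, plus strand: acagcaaaaggCTACCTCAtagt
IGF2BP1, chr17:49051065-49051087, plus strand: tgcgaagtaaaCTACCTCAaggt
IGF2BP1, chr17:49053702-49053724, plus strand: agtgctagtaaCTACCTCAcaga
IGF2BP1, chr17:49054356-49054378, plus strand: aaatggattaaCTACCTCAatcc
IGF2BP2, chr3:185644216-185644238, minus strand: cacagaagaagCTACCTCAggtg
IGF2BP3, chr7:23311791-23311813, minus strand: tttttactcaaCTACCTCAggta
HMGA2, chr12:65963302-65963324, plus strand: acgttcgatttCTACCTCAgcag
IGF1R, chr15:98960050-98960072, plus strand: caaacatttatCTACCTCActct

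LIN28B mRNA was found in the A2780 parent line, and only traces or zeros were listed elsewhere. Its FPKM in A2780 was 5.90 at the lowest, 6.46 at the median and 7.90 at the highest of 8 libraries. Each of the 8 A2780 OlaR libraries and each of the 8 shCEBPB libraries had it at 0, and shCON had it at 0 to 0.0290, with 3 of 7 libraries at 0. A2780 and A2780 OlaR did not overlap (limma adjusted p = 4.47e-21, exact permutation p = 0.0001554, two-sided, unadjusted and the smallest that these group sizes allow). No fold change is given against a group at 0. A lower value in such a bulk library can come from fewer cells with the mRNA or from less of it per cell, and these cannot be told apart. On hg38, LIN28B spans 104936616 to 105083332 of chromosome 6, and 181 of its exonic bases are shared with the antisense gene LIN28B-AS1. The sources used here do not say whether counting used the strand.

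LIN28A, its paralog, was far lower and had the same group on top. It ranged from 0.162 to 0.450 FPKM in A2780 (median 0.327). In A2780 OlaR it ranged from 0 to 0.0372 (median 0.0125), with 3 of 8 libraries at 0, and it was at 0 in every shCEBPB library and in 4 of 7 shCON libraries. Every A2780 library exceeded every library of the other groups. After correction for relative depth, the A2780 values were 24 to 76 times the smallest value above 0 of this gene, and those of A2780 OlaR at most 6 times. A2780 exceeded A2780 OlaR (mean 0.322 ± 0.0976 against 0.0113 ± 0.0124 FPKM, SD, n = 8 each, exact permutation p = 0.0001554, unadjusted). LIN28A failed the filter on low FPKM and was not in the fit across genes. Within A2780, LIN28B was 22.7 ± 8.13 times LIN28A on the FPKM scale (SD, n = 8).

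**Figure D1:**
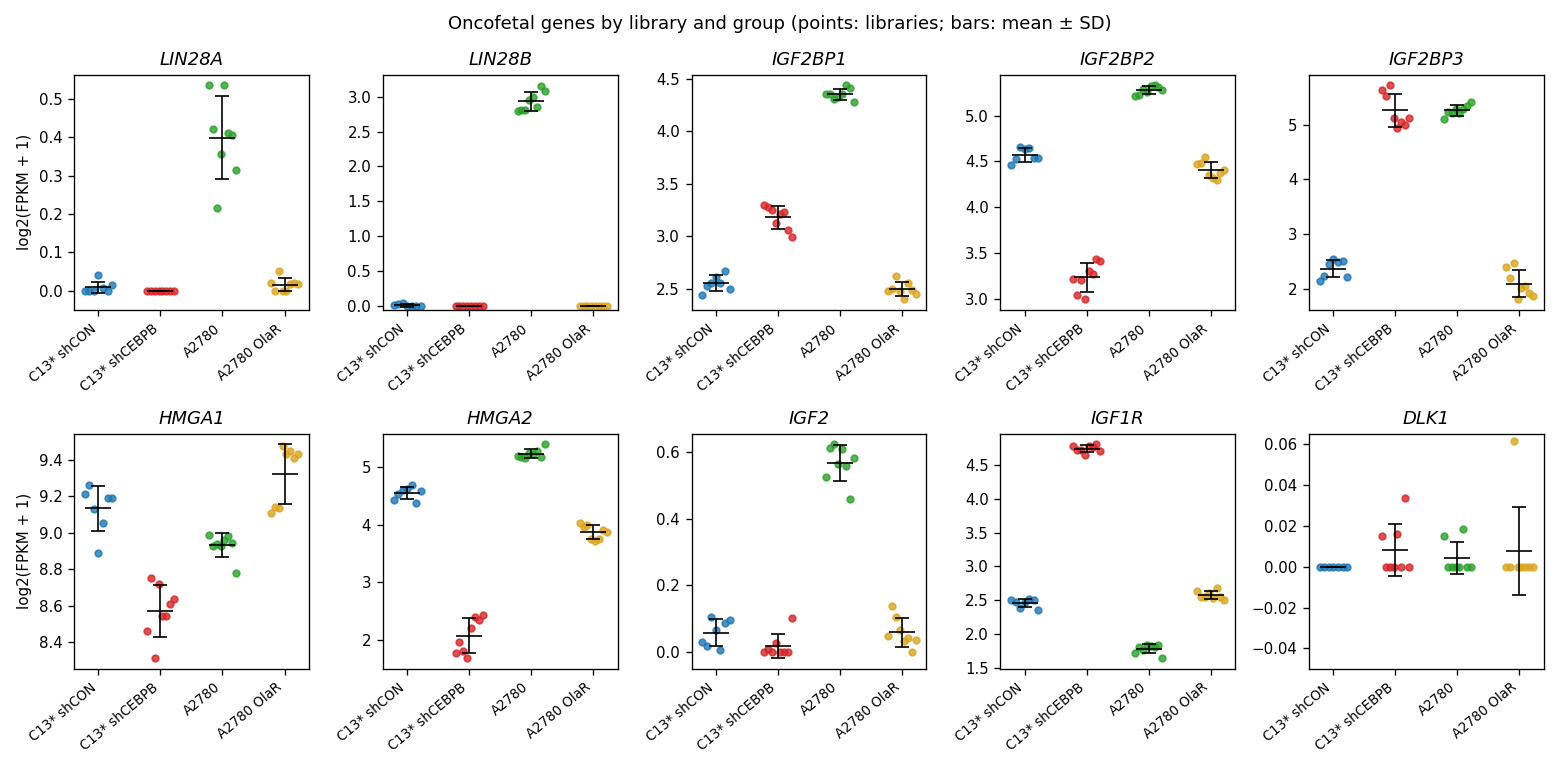
log2(FPKM + 1) of the 10 oncofetal genes (vertical axes, scaled to each gene) in the 4 groups (horizontal axes), with 1 point per library and bars for the mean ± SD of each group. LIN28A, LIN28B and IGF2 stand above the other groups in A2780 only, IGF2BP3 is high in both shCEBPB and A2780, and IGF1R is highest in shCEBPB.

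The IGF2BP genes did not move as a family: IGF2BP3 and IGF2BP1 were higher and IGF2BP2 was lower in shCEBPB than in shCON, whereas all 3 were lower in A2780 OlaR than in A2780. IGF2BP3 ranged from 3.44 to 4.83 FPKM in shCON (median 4.45) and from 29.8 to 51.5 in shCEBPB (median 33.7). Every shCEBPB library exceeded every shCON library, and the fold change was 7.39 on the FPKM + 1 scale (log2 fold change 2.89, standard error 0.12, adjusted p = 8.24e-14). Of all genes tested, 94.97% changed less in either direction.

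In the A2780 pair, IGF2BP3 ranged from 33.2 to 41.6 FPKM in the parent (median 37.3) and from 2.51 to 4.58 in A2780 OlaR (median 3.08). The groups did not overlap, and A2780 OlaR was lower by 3.17 on the log2 scale (log2 fold change -3.17, standard error 0.086, adjusted p = 1.04e-17). IGF2BP3 in shCEBPB and in A2780 overlapped, and the fit of all 4 groups found no difference past the threshold (log2 difference A2780 minus shCEBPB 0.0037, standard error 0.11, adjusted p = 0.976). IGF2BP3 lies on chromosome 7 from 23310209 to 23470491 on the minus strand, and 1521 of its exonic bases overlap MALSU1 on the opposite strand, so reads of the 2 genes could be mixed if counting ignored the strand.

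IGF2BP1 was highest in A2780, where it ranged from 18.4 to 20.6 FPKM (median 19.5). It ranged from 4.28 to 5.17 in A2780 OlaR (median 4.60), without overlap (log2 fold change -1.86, standard error 0.037, adjusted p = 5.59e-20). In C13* it ranged from 4.44 to 5.38 FPKM in shCON (median 4.87) and from 6.95 to 8.86 in shCEBPB (median 8.32). All shCEBPB libraries were above all shCON libraries, although the size was modest (log2 fold change 0.63, standard error 0.054, adjusted p = 4.59e-09).

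IGF2BP2 followed the opposite direction in C13*. It ranged from 21.1 to 24.2 FPKM in shCON (median 22.3) and from 6.98 to 9.77 in shCEBPB (median 8.45), and no library overlapped (log2 fold change -1.34, standard error 0.065, adjusted p = 9.12e-13). It ranged from 36.3 to 39.2 FPKM in A2780 (median 37.9) and from 18.6 to 22.4 in A2780 OlaR (median 19.97). This fall was separated as well (log2 fold change -0.87, standard error 0.038, adjusted p = 2.32e-14).

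FPKM are scaled by length, but the lengths used are not given, so the paralogs can be set beside each other only roughly. The same limit holds for the ratios of LIN28B to LIN28A and of HMGA1 to HMGA2. IGF2BP2 made up 71.6% ± 1.45 of the summed FPKM of the 3 genes in shCON and 71.8% ± 1.57 in A2780 OlaR, against 15.9% ± 3.55 in shCEBPB and 39.98% ± 0.966 in A2780 (SD over 7 or 8 libraries). IGF2BP3 held 69.1% ± 4.80 in shCEBPB and 39.5% ± 1.62 in A2780, and 13.1% ± 1.12 in shCON and 11.7% ± 1.87 in A2780 OlaR. The share of IGF2BP1 stayed between 15.03% and 20.6% in the group means. The sum itself was 94.7 ± 3.36 FPKM in A2780, 54.6 ± 8.74 in shCEBPB, 31.9 ± 1.90 in shCON and 28.2 ± 2.14 in A2780 OlaR.

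**Figure D2:**
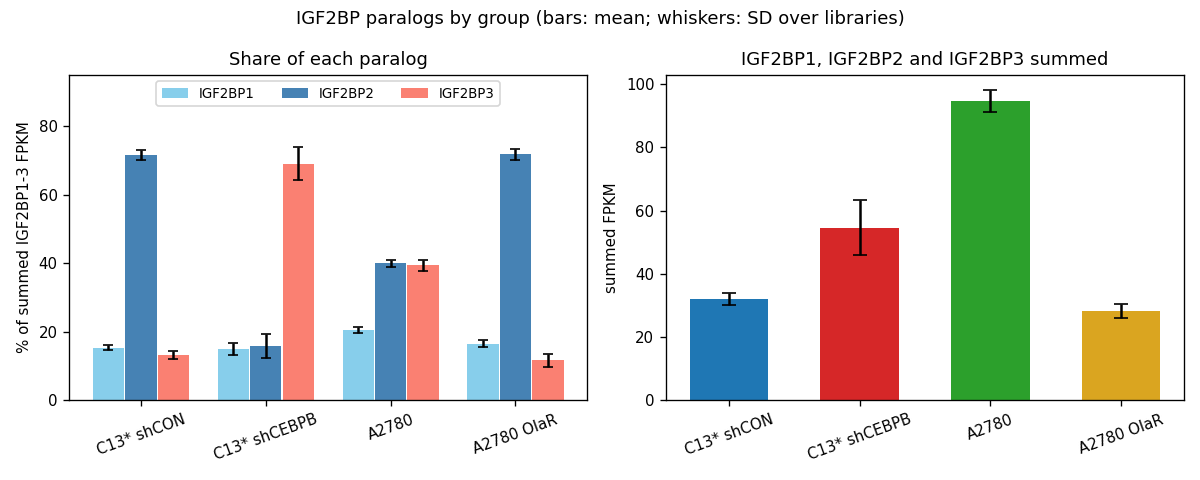
Share of IGF2BP1, IGF2BP2 and IGF2BP3 in their summed FPKM (left, percent) and the summed FPKM (right) in each group, as means with SD over libraries. IGF2BP2 holds over 70% in shCON and A2780 OlaR, IGF2BP3 holds 69.1% in shCEBPB, and both hold about 40% in A2780, where the sum is highest.

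HMGA2, which is made in the embryo and in many tumors, ranged from 19.9 to 24.7 FPKM in shCON (median 22.9) and from 2.20 to 4.39 in shCEBPB (median 3.22). The groups were apart by a wide margin (log2 fold change -2.48, standard error 0.11, adjusted p = 3.29e-13), which is a 5.57-fold fall on the FPKM + 1 scale. It ranged from 34.8 to 41.2 FPKM in A2780 (median 36.0) and from 12.2 to 15.3 in A2780 OlaR (median 13.8), again without overlap (log2 fold change -1.36, standard error 0.050, adjusted p = 1.57e-15). HMGA2 also separated the pair of groups with like profiles: A2780 OlaR was below shCON in every library (log2 difference -0.67, standard error 0.089, adjusted p = 3.03e-07, fit of all 4 groups). HMGA2 lies on chromosome 12 from 65824460 to 65966291, and 384 of its exonic bases overlap the antisense gene HMGA2-AS1.

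HMGA1 was the most abundant of the 10 genes in all 4 groups and moved least of those tested in both comparisons. It ranged from 474 to 613 FPKM in shCON (median 582) and from 318 to 430.3 in shCEBPB (median 381), without overlap (log2 fold change -0.56, standard error 0.066, adjusted p = 3.45e-07). It ranged from 438 to 507 FPKM in A2780 (median 490.4) and from 549.9 to 709.7 in A2780 OlaR (median 684), which also did not overlap (log2 fold change 0.39, standard error 0.058, adjusted p = 3.51e-06). With quantile normalization this rise fell to 0.079 and was no longer called (adjusted p = 0.0968). HMGA1 has processed pseudogenes whose reads may be split with it, so its level is uncertain. The ratio of HMGA1 to HMGA2 was 13.4 ± 1.16 in A2780, 25.3 ± 3.64 in shCON, 47.6 ± 9.02 in A2780 OlaR and 124 ± 36.5 in shCEBPB (FPKM, SD).

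IGF1R, the receptor of IGF1 and IGF2, ranged from 4.09 to 4.72 FPKM in shCON (median 4.54) and from 24.2 to 27.1 in shCEBPB (median 25.998). It was 4.90-fold higher in shCEBPB on the FPKM + 1 scale, with no overlap and a narrow spread (log2 fold change 2.29, standard error 0.040, adjusted p = 2.36e-19). It ranged from 2.12 to 2.57 FPKM in A2780 (median 2.49) and from 4.64 to 5.41 in A2780 OlaR (median 4.84), and was higher in A2780 OlaR in every library (log2 fold change 0.80, standard error 0.039, adjusted p = 1.52e-13).

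The ligand IGF2 stayed low in all groups and failed the filter on low FPKM. It ranged from 0.377 to 0.541 FPKM in A2780 (median 0.489) and from 0 to 0.101 in A2780 OlaR (median 0.0326). The A2780 libraries were above all others, and the difference from A2780 OlaR had an exact permutation p of 0.0001554 (unadjusted). After correction for relative depth, IGF2 in A2780 was 76 to 117 times its smallest value above 0, against at most 19 times in A2780 OlaR. IGF2 ranged from 0.00451 to 0.0764 FPKM in shCON and from 0 to 0.0735 in shCEBPB, where 5 of 8 libraries were at 0 (exact permutation p = 0.0538). IGF2 shares 2711 exonic bases with a protein-coding gene that has an Ensembl identifier but no symbol and 1460 with the read-through gene INS-IGF2, both on its strand, and 333 with IGF2-AS on the other strand, so its reads could be split.

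DLK1 was at or near 0 throughout. It was at 0 in 7 of 7 shCON, 5 of 8 shCEBPB, 6 of 8 A2780 and 7 of 8 A2780 OlaR libraries, and its highest value was 0.0436 FPKM. No difference was detectable at this depth (exact permutation p = 0.200 in C13* and 1 in A2780, unadjusted), and a level this low rests on at most 4 times the smallest value above 0.

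In counts, 6 of the 10 genes passed the filter in C13* and 6 were called, 3 higher and 3 lower in shCEBPB, and none of the 6 overlapped between groups. These counts must be read against a background in which most genes moved: of 12006 genes tested, 84.7% were called, 38.9% higher and 45.7% lower, and 66.0% did not overlap. In A2780, 7 of the 10 genes passed and 7 were called, 2 higher and 5 lower in A2780 OlaR, and none of the 7 overlapped. Of 12458 genes tested there, 89.8% were called, 40.1% higher and 49.7% lower, and 74.1% did not overlap. Being called is thus no distinction of the oncofetal genes. The median size of the log2 fold change was 1.82 over the 6 genes against 0.57 over all genes tested in C13*, and 1.36 over the 7 genes against 0.70 in A2780. These medians cover only genes that passed the filter, and a gene high in 1 group only, such as LIN28B, passed through that group. The 10 genes were also chosen with earlier results of these data known, so the larger medians are a description only. All genes tested had a median log2 fold change of -0.065 in C13* and -0.12 in A2780, and relative to these medians HMGA1 rose by 0.51 and IGF1R by 0.92 in A2780 OlaR.

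**Figure D3:**
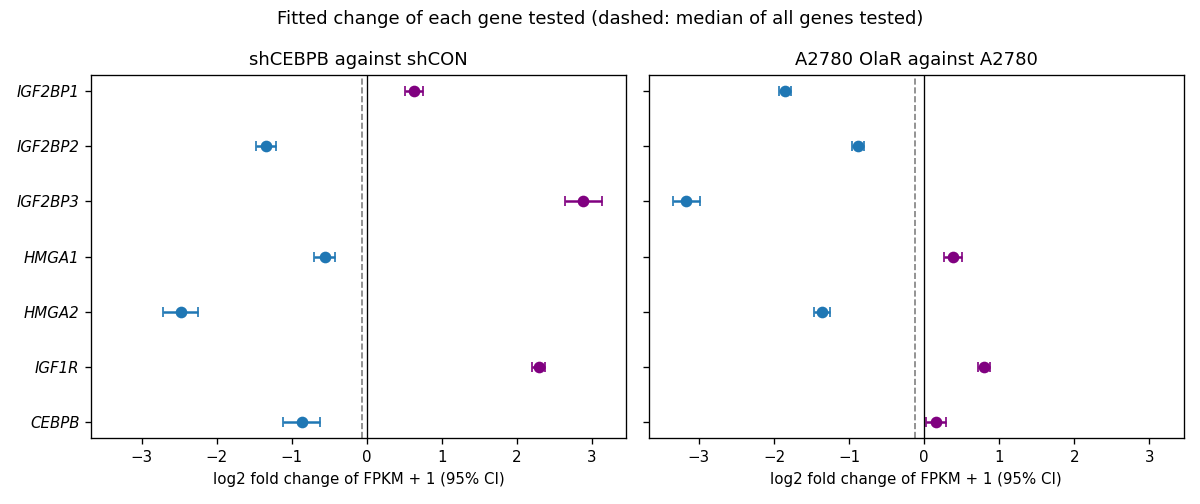
Fitted log2 fold change of FPKM + 1 (horizontal axes, points with 95% confidence intervals) of the genes tested and of CEBPB (vertical axis) in shCEBPB against shCON (left) and A2780 OlaR against A2780 (right), with a dashed line at the median of all genes tested. IGF2BP3 has the largest value in both panels, 2.89 and -3.17, and LIN28B is left out because it was listed at 0 in A2780 OlaR.

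The order of the 4 groups differed between genes. For IGF2BP1 it was A2780, shCEBPB, then shCON and A2780 OlaR, and the last pair did not pass the threshold (log2 difference -0.055, standard error 0.044, adjusted p = 0.361). For IGF2BP2 and HMGA2 it was A2780, shCON, A2780 OlaR, shCEBPB. For IGF2BP3 it was shCEBPB and A2780 together, then shCON, then A2780 OlaR, the last step being small (log2 difference -0.28, adjusted p = 0.0439) and within overlapping libraries. For IGF1R it was shCEBPB, A2780 OlaR, shCON, A2780, and for HMGA1 it was A2780 OlaR, shCON, A2780, shCEBPB, where shCON and A2780 overlapped (log2 difference A2780 minus shCON -0.20, adjusted p = 0.0048).

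Between A2780 OlaR and shCON, the pair with like profiles, IGF2BP2 (log2 difference -0.17, adjusted p = 0.0114), IGF1R (0.12, adjusted p = 0.0123) and HMGA1 (0.19, adjusted p = 0.0204) differed slightly with overlapping libraries. In that contrast 37.7% of 12967 genes were called. The corresponding shares were 87.6% for A2780 against shCON, 88.0% for A2780 against shCEBPB and 84.8% for A2780 OlaR against shCEBPB. LIN28B, LIN28A, IGF2, IGF2BP1, IGF2BP2 and HMGA2 were higher, and IGF1R lower, in every A2780 library than in every library of the other groups. IGF2BP3 in A2780 overlapped shCEBPB. IGF2BP2 and HMGA2 were also lowest, and IGF1R highest, in shCEBPB. Over all genes tested, 66.0% did not overlap between shCEBPB and shCON, and 74.1% between A2780 OlaR and A2780. The shares of all genes that set A2780 or shCEBPB apart from every other group were not counted, so this separation is no distinction of the oncofetal genes.

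Part of the spread within groups went with the number in the library code. In shCEBPB, IGF2BP3 was at 44.7 to 51.5 FPKM in libraries numbered 1 to 3 and at 29.8 to 33.8 in those numbered 4 to 8, without overlap. In A2780 OlaR, HMGA1 was at 549.9 to 563 FPKM in libraries 1 to 3 and at 678 to 709.7 in libraries 4 to 8, and HMGA2 at 14.6 to 15.3 and 12.2 to 14.0. CEBPB itself was at 30.2 to 42.1 FPKM in shCEBPB libraries 1 to 3 and at 47.7 to 58.7 in libraries 4 to 8. IGF2BP3 (3.62 to 4.58 and 2.51 to 3.13) and IGF2BP2 (21.2 to 22.4 and 18.6 to 20.3) split likewise in A2780 OlaR. So did IGF2BP1 in shCEBPB (8.49 to 8.86 and 6.95 to 8.38) and LIN28B in A2780 (5.90 to 6.03 and 6.21 to 7.90). LIN28B in shCON split too, at values near 0. The FPKM sum of whole libraries split at the same place in A2780 OlaR (432948 to 435413 and 448243 to 454578). It did so in shCEBPB too (421616 to 432575 and 443684 to 453895), but not in A2780 or shCON. The split was thus not confined to the genes named here, and how many of all genes split this way was not counted. The labels do not say what the number stands for. Within libraries 1 to 3 and within libraries 4 to 8 every call kept its direction. IGF2BP3 in C13* changed by 3.34 and 2.60 on the log2 scale, and HMGA1 in A2780 by 0.17 (adjusted p = 0.000172) and 0.52 (adjusted p = 5.42e-09).

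**Figure D4:**
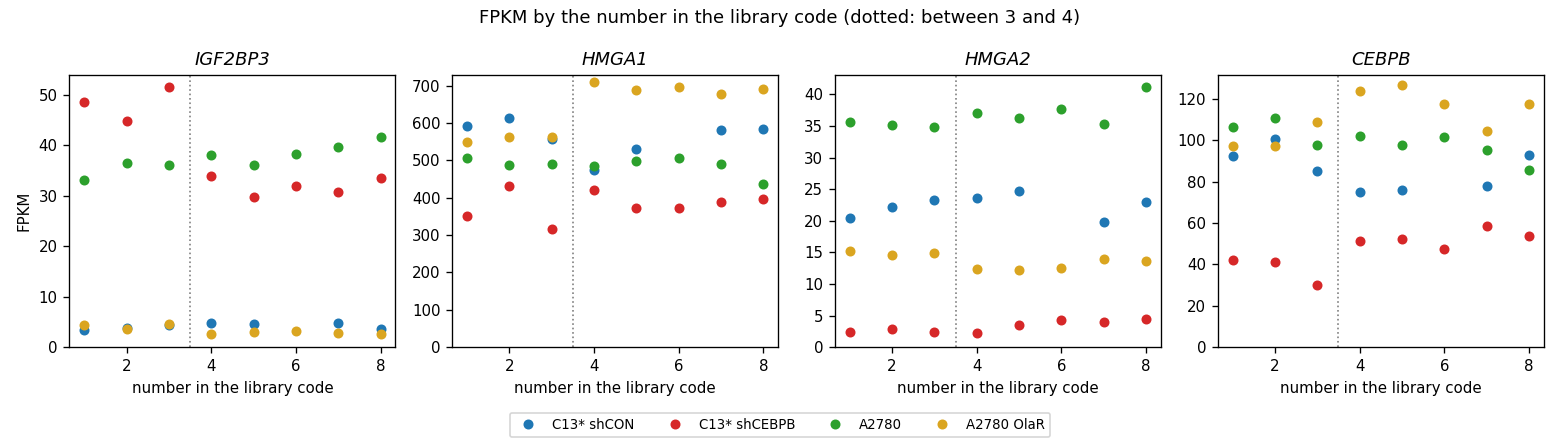
FPKM of IGF2BP3, HMGA1, HMGA2 and CEBPB (vertical axes, from 0) against the number in the library code (horizontal axes), with 1 point per library colored by group and a dotted line between 3 and 4. IGF2BP3 and CEBPB in shCEBPB, and IGF2BP3, HMGA1 and HMGA2 in A2780 OlaR, fall into separate ranges on either side of the line.

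Genes with a pattern most like each gene were ranked by Pearson's r of log2(FPKM + 1) over the 31 libraries. With only 4 groups, many genes share a pattern: 1065 genes (8.21%) had r of at least 0.95 with LIN28B, against 11 (0.0848%) with HMGA1. The values that follow are descriptions. The highest for LIN28B were NLGN1, ZNF415 and KIAA2022, all with r of at least 0.999 and means of at most 0.0152 FPKM outside A2780. For IGF2BP1 they were SPTAN1, ZNF280B and ZFP82 (each r = 0.995), and for IGF2BP2 PRSS16, UFSP2 and GJA1 (r = 0.994, 0.992 and 0.992). For IGF2BP3 they were SCD, the stearoyl-CoA desaturase, ATP1B1 and CHSY1 (r = 0.998, 0.997 and 0.995). SCD was at 101 FPKM in shCEBPB, 100.3 in A2780, 25.9 in shCON and 23.0 in A2780 OlaR. For HMGA1 they were GANAB, ZNRF1 and MUTYH (r = 0.975, 0.967 and 0.963), for HMGA2 ORMDL1, CCNG2 and SNX3 (r = 0.988, 0.987 and 0.987), and for IGF1R the adhesion gene MCAM, TIMP2 and PCID2 (r = 0.997, 0.996 and 0.995).

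Among the oncofetal genes themselves, HMGA2 and IGF2BP2 had the closest pattern (r = 0.986 over 31 libraries), and after the group means were removed r was 0.776. Both were inverse to IGF1R over all libraries (r = -0.971 and -0.973), but with group means removed r was 0.045 and 0.15. IGF2BP3 and HMGA1 were inverse in both ways (r = -0.827 and -0.662 within groups), and each shifted with the library number in 1 group or more. The libraries share groups and library numbers, so these values carry no test.

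In the related gene lists, as over all genes, most genes tested were called. For let-7 processing and decay, 13 of 15 genes tested were called in C13* (6 higher, 7 lower) and 13 of 16 in A2780 (7 higher, 6 lower). The list median was -0.071 and 0.029 on the log2 scale, beside -0.065 and -0.12 over all genes. In shCEBPB, TARBP2, a partner of Dicer, rose from 11.6 ± 1.39 to 29.0 ± 4.92 FPKM (log2 fold change 1.24, adjusted p = 2.41e-09), and KHSRP rose by 0.55 on the log2 scale. PRKRA (log2 fold change -0.83) and DICER1, which cuts let-7 precursors (-0.73), fell. In A2780 OlaR, MSI1, which assists LIN28 in neural cells, was at 0.0123 ± 0.0181 FPKM against 6.53 ± 0.556 in A2780. TUT4, which uridylates let-7 precursors held by LIN28, fell from 22.8 ± 1.503 to 12.6 ± 1.97 FPKM (adjusted p = 3.61e-09). DROSHA, the nuclear processor of microRNA precursors, rose from 20.7 ± 0.760 to 48.7 ± 3.90 FPKM, and DIS3 rose as well (log2 fold change 1.40).

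Of the let-7 target genes, 20 of 22 tested were called in C13* (9 higher, 11 lower, list median -0.13) and 21 of 21 in A2780 (7 higher, 14 lower, list median -0.46). CCND2, a cyclin, was at 33.9 ± 1.47 FPKM in shCON and 0.0031 ± 0.0063 in shCEBPB. CDK6 rose from 12.1 ± 1.16 to 53.1 ± 7.83 FPKM (log2 fold change 2.04, adjusted p = 7.29e-14), and TGFBR1 from 9.41 ± 0.443 to 30.4 ± 4.18. In A2780 OlaR, CPEB1 was at 0.132 ± 0.0289 FPKM against 15.4 ± 0.739, and ARID3B fell from 18.8 ± 0.377 to 2.40 ± 0.232. MYC rose from 34.1 ± 1.15 to 141 ± 6.11 FPKM (log2 fold change 2.02, adjusted p = 1.86e-21), and CCND2 from 0.847 ± 0.124 to 10.7 ± 0.460. Targets of let-7 thus went both ways in both comparisons.

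Of the writers, erasers and readers of N6-methyladenosine, 14 of 18 were called in C13* (6 higher, 8 lower) and 16 of 18 in A2780 (8 higher, 8 lower), with list medians of -0.038 and 0.015. In shCEBPB, METTL3, the catalytic methyltransferase, fell from 34.1 ± 1.26 to 19.7 ± 1.55 FPKM, and the demethylase FTO from 22.1 ± 1.91 to 12.0 ± 1.56. METTL16 (log2 fold change 1.18) and HNRNPA2B1 (0.81) rose. In A2780 OlaR, WTAP, a subunit of the writer complex, fell from 44.02 ± 2.16 to 15.8 ± 1.91 FPKM, and METTL16 fell by 0.89 on the log2 scale. FTO rose from 10.8 ± 0.625 to 23.1 ± 2.41 FPKM, and RBM15 rose as well (log2 fold change 0.89).

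Around the receptor, all 15 tested genes of IGF ligands, receptors and adaptors were called in each comparison, 8 higher and 7 lower, with list medians of 0.24 in C13* and 0.19 in A2780. The adaptors IRS2 (7.83 ± 0.672 to 46.5 ± 4.31 FPKM) and GRB10 (1.02 ± 0.140 to 9.97 ± 0.512 FPKM) rose in shCEBPB, and GRB14 (5.53 ± 0.427 to 0.170 ± 0.0795 FPKM) fell. In A2780 OlaR, GRB10 fell from 33.7 ± 1.40 to 1.12 ± 0.152 FPKM, and IGF2R, which clears IGF2 from the cell surface, from 38.5 ± 0.854 to 9.82 ± 0.325. IRS2 (1.02 ± 0.155 to 8.16 ± 0.737 FPKM) and GRB14 (0.0613 ± 0.0332 to 4.43 ± 0.736 FPKM) rose.

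Binding proteins and their proteases had the largest median size of log2 fold change of the 9 lists in C13* (1.99). There 8 of 9 tested genes were called (5 higher, 3 lower, list median 0.78). The filter left out genes low in both groups. IGFBP1, IGFBP2, IGFBP4, IGFBP7 and PAPPA2 passed it through 1 group only, so this rank is a description and no distinction of the list. IGFBP7 went from 0.112 ± 0.104 to 142 ± 16.1 FPKM and IGFBP4 from 0.343 ± 0.0837 to 88.5 ± 15.8 in shCEBPB. STC2, which inhibits an IGFBP protease, fell from 34.0 ± 2.60 to 7.79 ± 0.509 FPKM, and IGFBP2, at 4.86 ± 1.20 FPKM in shCON, was listed at 0 in all shCEBPB libraries. In A2780, 6 of 6 tested genes were called (2 higher, 4 lower, list median -1.28). IGFBP3, the main carrier of IGFs in serum, fell from 203 ± 5.61 to 41.4 ± 2.18 FPKM and IGFBPL1 from 28.1 ± 0.440 to 0.0399 ± 0.02997, while HTRA1 rose from 4.69 ± 0.321 to 20.6 ± 0.914 and IGFBP6 from 51.8 ± 7.03 to 108 ± 24.998.

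The list of imprinted growth genes also held genes that act on imprinted loci, such as CTCF. Of its 22 genes, 20 were in the table. In C13*, 12 of 12 tested were called (10 higher, 2 lower, list median 0.50). In A2780, 9 of 9 were called (5 higher, 4 lower, list median 0.57). CTCF is counted among the lower genes in both. CDKN1C, a maternally expressed inhibitor of the cell cycle, rose from 1.06 ± 0.180 to 31.7 ± 6.01 FPKM in shCEBPB, and KCNQ1, in the same imprinted domain, from 0.130 ± 0.0601 to 13.6 ± 3.21. NNAT (log2 fold change -0.94) and CTCF (-0.38) fell. In A2780 OlaR, MEST rose from 0.0346 ± 0.0240 to 32.8 ± 2.55 FPKM and PHLDA2 from 9.34 ± 0.783 to 31.6 ± 3.94, and CDKN1C fell from 9.64 ± 1.07 to 1.93 ± 0.281 and SLC22A18 from 17.5 ± 1.101 to 9.56 ± 0.844.

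Of 14 other oncofetal genes, 6 passed the filter in C13* (3 higher, 3 lower, all called) and 7 in A2780 (3 higher, 4 lower, all called), with list medians of -0.18 and -1.30. The placental alkaline phosphatase ALPP rose from 2.39 ± 0.178 to 194 ± 23.4 FPKM in shCEBPB and its near-identical paralog ALPG from 0.101 ± 0.0504 to 8.29 ± 1.30, so their reads may be mixed. TPBG fell from 34.8 ± 1.53 to 6.86 ± 0.453 FPKM, and PLAC1 was lower with overlapping libraries (log2 fold change -0.68, adjusted p = 0.000218). In A2780 OlaR, ALPG fell from 24.0 ± 1.80 to 0.367 ± 0.110 FPKM and the glypican GPC3 from 7.33 ± 0.731 to 0.508 ± 0.120, whereas ALPP and PLAC1 rose (log2 fold change 1.94 and 1.19).

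Of the other HMG box and nucleosome binding genes, 11 of 12 were called in C13* (4 higher, 7 lower, list median -0.29) and 12 of 12 in A2780 (7 higher, 5 lower, list median 0.17). HMGB2 fell from 278 ± 7.76 to 68.1 ± 2.52 FPKM in shCEBPB and HMGXB4 by 0.69 on the log2 scale, while HMG20B rose from 149.8 ± 17.4 to 579.7 ± 131 and HMGN5 from 0.0410 ± 0.0269 to 9.70 ± 2.25. In A2780 OlaR, HMGN5 was listed at 0 in all libraries against 26.003 ± 3.90 FPKM, HMGB3 fell by 0.49 on the log2 scale, and HMG20B (log2 fold change 1.54) and HMGN2 (1.27) rose. Of the Notch ligands, receptors and targets around DLK1, 14 of 14 tested were called in C13* and 16 of 16 in A2780, 7 higher and 7 lower in C13* and 8 higher and 8 lower in A2780, with list medians of -0.14 and 0.38. DLL1 and JAG1, both ligands, were at 23.2 ± 1.72 and 16.6 ± 0.605 FPKM in shCON and at 0.0113 ± 0.0177 and 1.40 ± 0.117 in shCEBPB, where NOTCH3 rose from 2.29 ± 0.298 to 31.2 ± 3.996 and LFNG from 2.82 ± 0.673 to 10.5 ± 2.57. In A2780 OlaR, NOTCH3 and DLL4 fell (log2 fold change -2.45 and -1.60), and JAG1 and DLK2, the paralog of DLK1, rose (3.81 and 2.88).

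**Figure D5:**
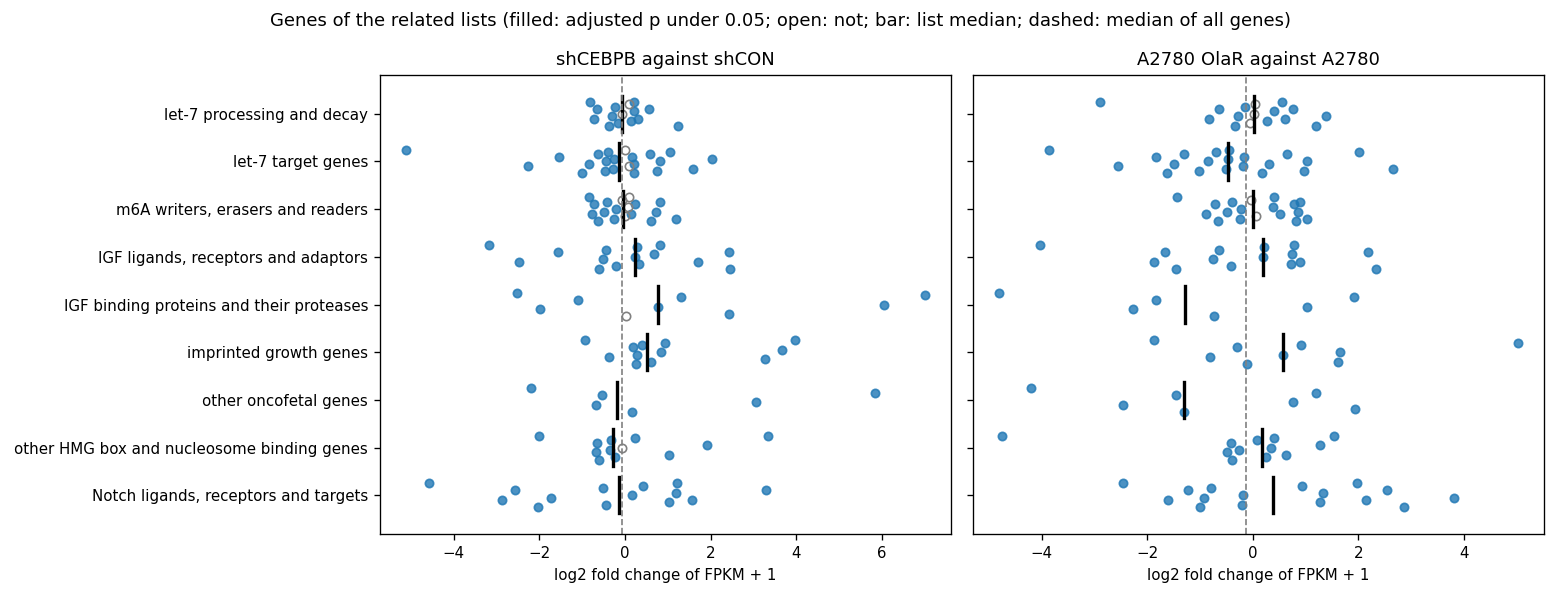
Fitted log2 fold change of FPKM + 1 (horizontal axes) of each tested gene of the 9 related lists (rows) in shCEBPB against shCON (left) and A2780 OlaR against A2780 (right), with filled points for genes called and open points for the others, a bar at each list median and a dashed line at the median of all genes tested. Every list has points on both sides of 0 in both panels.

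Promoter windows (250 bases before to 50 after the start, RefSeq, GRCh38.p14) were at hand for IGF2BP2, IGF2BP3, HMGA1, LIN28B and IGF1R, 8 windows in all. None held the C/EBP core TTGCNNAA on either strand, which 10.5% of 35116 promoter windows held. This says only that these letters are not in those windows.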

How the data were processed

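Expression was analysed in 31 libraries (C13* shCON, n = 7; C13* shCEBPB, A2780 and A2780 OlaR, n = 8 each). The authors mapped the reads to hg38 with TopHat and deposited them as FPKM, normalized to gene length and library size. The submitters' processing notes also name FastQC and edgeR. The study gives 150-bp paired-end reads counted per gene with HTSeq; how FPKM were computed, with which annotation, and whether counting used the strand are not given in the sources used here. Groups came from the sample labels. Of 19225 entries, 4 whose symbol occurred more than once were dropped. FPKM sums were 417556 to 454578, and absolute depth is unknown. Of 8621 low values, 94.4% lay within 0.05 of whole steps, which gave relative depths that differed up to 1.42-fold between libraries.

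Changes were fitted with limma 3.58.1 (R 4.3.3, trend, two-sided) on log2(FPKM + 1), which understates changes of low genes, for genes that reached 1 FPKM in 7 or more of the 15 C13* libraries or 8 or more of the 16 A2780 libraries. Benjamini-Hochberg adjustment covered all genes tested, and a gene was called at an adjusted p below 0.05. A fit of all 4 groups gave the order of levels. Exact permutation tests used all 6435 or 12870 relabellings. Simulated data with known changes were used to test the fit. The rest used matplotlib 3.10.9, pandas 2.3.3, scipy 1.17.1 and numpy 2.4.6 under Python 3.11.15.

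The 10 genes and all lists were chosen with earlier results of these data known. Besides them, the text names CEBPB, the cell type markers, the 3 genes most correlated with each gene, and in each list and comparison up to 2 called genes with the largest rise and 2 with the largest fall. Some genes that this rule selects are not reported here. H19 and MEG3 had no match in the table. Positions and exons are from GENCODE 44 on hg38, and sequences from GENCODE or RefSeq. Same-numbered libraries are not said to be related. Alternatives were 2 pseudocounts, 2 filters, 3 scalings, 1 fit of all groups, a replicate block, 2 library ranges, a fold threshold, an exact rank test and the omission of 1 library.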

Additional observations from a re-analysis of the deposited data

Results flagged for a closer look

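In 40 sets of 7 or 8 libraries (1 gene in 1 group, sets at 0 throughout left out), 7 had an extreme library whose gap to the next, relative to the range of the set, passed Dixon's 95% critical value. Chance flags about 1 in 20 such sets. For LIN28A, shCON replicate 4 (0.0282 FPKM) and A2780 OlaR replicate 3 (0.0372 FPKM) were highest. For IGF2, shCEBPB replicate 8 was highest (0.0735 FPKM). For DLK1, shCEBPB replicate 7 (0.0238 FPKM) and A2780 OlaR replicate 3 (0.0436 FPKM) were highest. These 5 sets hold values near 0. In A2780 replicate 8, HMGA1 was the lowest of its group at 438 FPKM, the next library being at 486, and HMGA2 was the highest at 41.2 FPKM, the next being at 37.7.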

How the results depend on the processing

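Of 161 fitted values of the oncofetal genes under the alternatives other than the fold threshold, 160 kept their direction and their call. The 2 filters, the fit of all groups and the rank test leave the log2 fold change as it was, so there only the call could change. The exception was HMGA1 in A2780 OlaR against A2780 under quantile normalization (log2 fold change 0.079, adjusted p = 0.0968, against 0.39), and the range over the alternatives was 0.079 to 0.53. IGF2BP3 ranged from 2.60 to 3.34 in C13* and from -3.52 to -2.81 in A2780, and LIN28B, listed at 0 in A2780 OlaR, from -9.37 to -2.80, where the pseudocount sets the value. Requiring at least a 2-fold change left 3539 of 10166 genes called in C13* and 4446 of 11190 in A2780, and 4 of 6 and 4 of 7 oncofetal genes, which follows from the stricter rule. The share of calls that were higher in A2780 OlaR was 44.7%, and 50.4% with median ratio scaling, which moved the all-gene median log2 fold change from -0.12 to 0.0060. Without a filter, LIN28A and IGF2 were also called in A2780 (9 of 10 genes).

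Libraries with the same replicate number did not deviate together, so replicate numbers were not taken to pair them. The mean r of deviations from the group means was -0.148 in C13* and -0.233 in A2780, against 0.0234 and 0.0370 for other pairs. In C13*, shCON replicates 6 and 7 carry library codes numbered 7 and 8, so pairing by code number was not tested for them. The replicate block used the same replicate numbers. With the replicate block, 9885 genes were called in C13* and 10960 in A2780, with 6 and 7 oncofetal genes as before. FPKM without read totals give no counting error, and values near 0 of LIN28A, IGF2 and DLK1 are limited by depth.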
